A study of Mus musculus with 6 samples.

Results

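Insulin and the insulin-like growth factors act on heart muscle through a short chain of proteins. Ligand-bound receptors, INSR and IGF1R, phosphorylate the adaptors IRS1 and IRS2, which dock the class IA phosphoinositide 3-kinase (PI3-kinase). That kinase pairs a regulatory subunit, encoded by Pik3r1 or Pik3r2 among others, with a catalytic subunit, encoded by Pik3ca or Pik3cb among others, and the lipid it makes recruits the protein kinases AKT1 and AKT2. In cardiomyocytes the chain is known for its roles in heart growth, survival and glucose uptake. The genes described here are Insr, Igf1r, Irs1, Irs2, Pik3r1, Pik3r2, Pik3ca, Pik3cb, Akt1 and Akt2. They were chosen by gene name, and all 10 were found, once each, among the 54532 genes measured.

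RNA was sequenced from the hearts of 6 mice. The 3 control mice (Ctrl) were Mrps5 fl/fl, with loxP sites in Mrps5, and the 3 conditional knockout mice (cKO) were Mrps5 fl/fl; MCM, with an added MerCreMer transgene driven by the cardiomyocyte promoter αMHC. Mrps5 encodes a small-subunit protein of the ribosome inside mitochondria. Mice of both groups received tamoxifen at 45 mg per kg per day for 5 days from 8 weeks of age. The labels and the study's account of its results place sampling 12 weeks after tamoxifen, while a sentence of its methods gives 12 weeks as the age of the mice. Ctrl hearts carried no Cre, so the loss of Mrps5 and the presence of MerCreMer cannot be told apart. The samples were bulk tissue, ventricular by the methods, in which fewer cells of a type and less RNA per cell cannot be told apart.

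Values are FPKM, fragments per kilobase of gene relative to a library size, so levels of different genes can be set side by side. Libraries held 15989322 to 24875499 reads assigned to genes. The library sizes behind the FPKM values were 0.913 to 0.980 times these totals in Ctrl and 1.06 times in each cKO heart, so the values were not scaled to the read totals. Rescaled to the totals, all genes tested had a median log2 fold change of 0.09 instead of -0.02, and member calls that this changes are named below. Mrps5 averaged 5.99 ± 0.690 FPKM in Ctrl and 1.22 ± 0.0947 FPKM in cKO hearts (SD, n = 3 each), or 20.4% of the Ctrl level, and its groups did not overlap. Tnni3, the cardiac troponin I gene, averaged 1815 FPKM in Ctrl and 1163 FPKM in cKO hearts, so the labelled tissue carried its muscle marker in either group. Some libraries stood apart. Xist was at 10.7 FPKM in cKO replicate 2 and at most at 0.127 FPKM elsewhere, and the mean of 4 Y-linked genes was 0 in that heart alone. By these genes cKO replicate 2 was female and the other hearts male, whereas the paper states that its mice were all male. Sex was thus not balanced between the groups, and its part in the values was not tested. The summed atrial markers were highest in Ctrl replicate 1 (2054 FPKM) and lowest in Ctrl replicate 3 (128 FPKM), with 575 to 1675 FPKM in cKO hearts. Most of the cKO sums was Nppa (469, 1127 and 938 FPKM in replicates 1, 2 and 3), which the paper uses as a hypertrophy marker. Myl7 was at 679, 98.6 and 18.1 FPKM in Ctrl and 71.8, 170 and 495 FPKM in cKO replicates 1, 2 and 3. The other atrial markers, Sln, Myl4 and Bmp10, were likewise highest among cKO hearts in replicate 3. Calls on members that change without Ctrl replicate 1 and cKO replicate 2 are therefore named.

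The start regions of 4 members are shown, those of Igf1r and Pik3r1 because their cKO means lay furthest above and below the Ctrl means, and those of Akt1 and Akt2 because these close relatives changed in opposite directions. Each is the 250 bases before a RefSeq transcription start on GRCm38.p6, read 5′ to 3′ on the strand of the gene, and none overlaps an annotated exon. Capitals mark matches, on either strand, to 4 motifs. These were the E-box CACGTG, the FOXO motif GTAAACA, the CRE-like motif TGACGT and the GC box GGGCGG, a sequence bound by SP-family factors. Matches to different motifs did not overlap in these windows.
Igf1r, chr7:67952007-67952256, plus strand: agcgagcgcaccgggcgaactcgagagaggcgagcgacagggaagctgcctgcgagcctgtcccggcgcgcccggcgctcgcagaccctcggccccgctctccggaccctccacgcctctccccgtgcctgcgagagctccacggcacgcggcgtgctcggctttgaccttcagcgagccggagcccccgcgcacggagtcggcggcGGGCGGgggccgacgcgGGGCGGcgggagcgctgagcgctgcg
Pik3r1, chr13:101768218-101768467, minus strand: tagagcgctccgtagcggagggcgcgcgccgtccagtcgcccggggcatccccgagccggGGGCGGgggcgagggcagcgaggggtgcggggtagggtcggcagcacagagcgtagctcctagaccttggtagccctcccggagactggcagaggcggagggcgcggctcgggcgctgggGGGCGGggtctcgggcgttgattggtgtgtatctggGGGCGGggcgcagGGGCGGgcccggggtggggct
Akt1, chr12:112674885-112675134, minus strand: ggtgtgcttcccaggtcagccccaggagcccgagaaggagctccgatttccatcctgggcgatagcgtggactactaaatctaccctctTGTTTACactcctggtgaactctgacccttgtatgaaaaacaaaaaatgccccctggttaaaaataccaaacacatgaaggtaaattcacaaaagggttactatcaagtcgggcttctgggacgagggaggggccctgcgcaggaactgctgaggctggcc
Akt2, chr7:27591302-27591551, plus strand: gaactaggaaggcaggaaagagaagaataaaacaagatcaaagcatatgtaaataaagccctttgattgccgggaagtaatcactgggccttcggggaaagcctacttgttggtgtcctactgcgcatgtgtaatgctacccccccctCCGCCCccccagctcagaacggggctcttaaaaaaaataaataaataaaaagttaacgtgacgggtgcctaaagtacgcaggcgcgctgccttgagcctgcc

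The windows of Igf1r and Pik3r1 are rich in G and C, at 77.6% and 76.4%, and hold 2 and 4 GC boxes. The Akt1 window holds 52.0% G and C and 1 FOXO motif, read on the opposite strand, and the Akt2 window holds 48.8% G and C and 1 GC box. Both adaptor genes, Irs1 and Irs2, have an E-box in the window before their start. Over 32851 windows of the same length in the RefSeq table, 32.7% hold a GC box, 3.17% the FOXO motif, 6.02% the E-box and 6.47% the CRE-like motif. RefSeq gives more than 1 start for Akt1, Akt2 and Pik3r1, and gene-level values cannot say which start was in use. The window of a second Akt1 start differs from the one shown, with 78.4% G and C, 4 GC boxes and no FOXO motif. The window of a second Pik3r1 start holds 42.4% G and C and no match to the 4 motifs. Insr was the only member without a window in the table.

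In Ctrl hearts the members spanned a wide range of levels. Akt1 was the most abundant at 51.7 ± 2.46 FPKM, and all 3 of its Ctrl values lay above those of every other member. Pik3r1 (35.4 ± 5.70 FPKM) and Akt2 (30.8 ± 1.31 FPKM) came next, and their Ctrl values overlapped. Insr stood at 14.9 ± 1.04 FPKM, clear of its neighbours on either side, followed by Pik3r2 at 8.27 ± 0.344 FPKM and Pik3ca at 6.63 ± 0.542 FPKM, which were also separate. The lowest levels were those of Irs2 (3.04 ± 0.867 FPKM), Pik3cb (2.63 ± 0.138 FPKM), Irs1 (2.18 ± 0.579 FPKM) and Igf1r (2.12 ± 0.193 FPKM), each overlapping the next. Read numbers ran from 270 in the shallowest heart for Irs1 to 9218 in the deepest for Pik3r1.

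The comparison of cKO with Ctrl asks how the transcripts of this chain differ after cardiomyocyte deletion of Mrps5. Of the 10 members, Igf1r, Pik3cb and Akt1 rose, Akt2 fell, and Insr, Irs1, Irs2, Pik3r1, Pik3r2 and Pik3ca did not pass the test (limma on log2(FPKM + 1), Benjamini-Hochberg adjusted p under 0.05). Over all 12944 genes tested, 16.3% were called higher, 17.0% lower and 33.3% in either direction, against 3, 1 and 4 of the 10 members, so these counts are no result about the members as a group. With each library scaled without its mtDNA-encoded transcripts, the 2110 higher and 2205 lower calls over all genes became 2649 and 1621, and with scaling to read totals 3273 and 1381. For 7 members the 3 Ctrl and the 3 cKO values did not overlap, where the same held for 51.2% of all genes tested. The median log2 fold change of the members was -0.02, as was that of all genes.

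**Figure D1:**
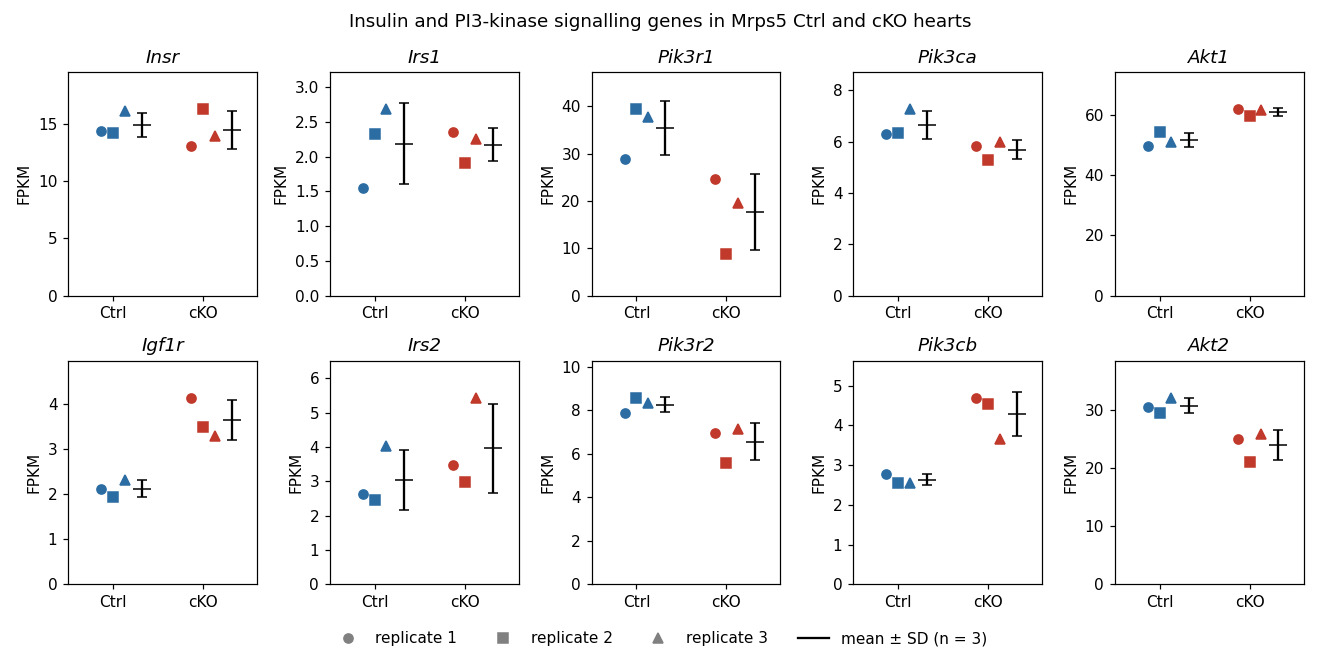
FPKM of the 10 members in each of the 3 Ctrl (blue) and 3 cKO (red) hearts, with the replicate shown by the marker and the mean ± SD (n = 3) beside the points; every axis starts at 0. Igf1r, Pik3cb and Akt1 were higher in all cKO hearts, Akt2, Pik3r1, Pik3r2 and Pik3ca were lower in all of them, and Insr, Irs1 and Irs2 overlapped between groups.

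Of the receptors, the IGF1 receptor gene rose and the insulin receptor gene did not pass the test. Igf1r (chromosome 7, 67952827 to 68233668, plus strand, 21 exons), whose product binds IGF1 and IGF2, gave 2.11, 1.93 and 2.32 FPKM in Ctrl replicates 1, 2 and 3 against 4.12, 3.49 and 3.28 FPKM in cKO replicates 1, 2 and 3, the order kept from here on. Every cKO heart lay above every Ctrl heart. The cKO mean of 3.63 ± 0.439 FPKM was 171% of the Ctrl mean, and the log2 fold change of FPKM + 1 was 0.57 (SE 0.0953, 95% confidence interval 0.34 to 0.79, limma adjusted p 0.00584). The call held in all 16 alternatives run, with log2 fold changes of 0.49 to 0.78.

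Insr (chromosome 8, 3122061 to 3279617, minus strand, 21 exons), the insulin receptor, was at 14.4, 14.2 and 16.1 FPKM across Ctrl hearts against 13.1, 16.3 and 14.0 FPKM across cKO hearts. The values of the groups overlapped. Its log2 fold change was -0.04 (SE 0.0983, interval -0.28 to 0.19, limma adjusted p 0.758), and scaling without mtDNA-encoded transcripts turned its sign to 0.04, as did scaling to read totals (0.10). Insr stayed the more abundant receptor in every heart, but its excess over Igf1r was smaller in cKO. The ratio of Insr to Igf1r was 6.81, 7.35 and 6.94 in Ctrl and 3.17, 4.66 and 4.26 in cKO hearts, a 1.77-fold lower geometric mean without overlap. Igf1r made up 12.5% ± 0.430 of the FPKM of both receptors in Ctrl and 20.2% ± 3.31 in cKO hearts.

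Neither adaptor gene passed the test, and both were low in FPKM. Irs1 (chromosome 1, 82233101 to 82291416, minus strand, 2 exons), which links the receptors to PI3-kinase, was at 1.55, 2.32 and 2.68 FPKM across Ctrl hearts against 2.36, 1.91 and 2.25 FPKM across cKO hearts. Its cKO values lay within the Ctrl range, with a log2 fold change of 0.01 (SE 0.145, interval -0.33 to 0.35, limma adjusted p 0.973). Irs2 (chromosome 8, 10984681 to 11008458, minus strand, 2 exons), the second adaptor of the family, was at 2.64, 2.46 and 4.04 FPKM across Ctrl hearts against 3.49, 2.98 and 5.43 FPKM across cKO hearts. In either group replicate 3 was the highest, and the groups overlapped. Its log2 fold change was 0.29 (SE 0.214, interval -0.22 to 0.79, limma adjusted p 0.340), an interval that spans values from a small decrease to an increase above that of Igf1r.

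Both regulatory subunit genes were lower in all cKO hearts, yet neither passed the threshold. Pik3r1 (chromosome 13, 101680563 to 101768217, minus strand, 16 exons) encodes p85α, which stabilises the catalytic subunit and docks it on the adaptors. It was at 28.8, 39.4 and 37.8 FPKM across Ctrl hearts against 24.7, 8.87 and 19.6 FPKM across cKO hearts. The lowest Ctrl value and the highest cKO value, those of replicate 1 in each group, were close, while cKO replicate 2 stood far below all others. The cKO mean of 17.7 ± 8.07 FPKM was 50.1% of the Ctrl mean, and the log2 fold change was -1.06 (SE 0.339, interval -1.86 to -0.25, limma adjusted p 0.0510).

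Which hearts entered decided the call on Pik3r1. Without cKO replicate 2 the log2 fold change shrank to -0.65 and the limma adjusted p was 0.0307. Without cKO replicate 1 the log2 fold change was -1.34 with a limma adjusted p of 0.0308, and without both Ctrl replicate 1 and cKO replicate 2 it was -0.79 with 0.0197. The gene also passed with a minimum mean of 1 FPKM (limma adjusted p 0.0466) and in voom on the recovered reads (0.0354). Over the 16 alternatives 5 made the call, the direction was the same in each, and the limma adjusted p ranged from 0.0197 to 0.137. The study had itself carried Pik3r1 forward as a candidate from these hearts, so its direction here is not independent evidence. By the study's own test the gene was among those lower in cKO. The paper also reports less Pik3r1 at several times after deletion and in cardiomyocytes with Mrps5 knocked down. It reports the same in hearts after aortic constriction and in cultured cardiomyocytes given hypertrophic stimuli. In patients with dilated cardiomyopathy it reports more. When a viral vector raised Pik3r1 in cKO hearts, the paper reports no rescue but worse heart function and more hypertrophy.

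Pik3r2 (chromosome 8, 70768176 to 70776713, minus strand, 16 exons), which encodes the related subunit p85β, was at 7.90, 8.58 and 8.34 FPKM across Ctrl hearts against 6.97, 5.60 and 7.14 FPKM across cKO hearts. All cKO values were lower, and as for Pik3r1 the lowest was that of cKO replicate 2. Its cKO mean was 79.4% of the Ctrl mean, with a log2 fold change of -0.30 (SE 0.0982, interval -0.53 to -0.07, limma adjusted p 0.0554). Only voom on the recovered reads called it lower (adjusted p 0.0488). Pik3r3, the third class IA regulatory gene, averaged 2.13 and 1.97 FPKM and did not pass either (limma adjusted p 0.527).

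Pik3r1 was the more abundant of the pair in every heart, by a smaller margin in cKO. The ratio of Pik3r1 to Pik3r2 was 3.65, 4.59 and 4.53 in Ctrl and 3.54, 1.58 and 2.74 in cKO hearts, 1.70-fold lower in geometric mean. On the log2 scale the difference of -0.77 became -0.44 without cKO replicate 2 and -1.02 without cKO replicate 1. Replicates 1 of the groups were again nearly equal. The summed FPKM of Pik3r1, Pik3r2 and Pik3r3 was 45.8 ± 5.96 in Ctrl and 26.3 ± 8.98 in cKO hearts, and Pik3r1 supplied 77.0% ± 2.62 and 65.2% ± 9.79 of it. Endothelial markers summed to 178 to 209 FPKM in Ctrl and to 128 to 142 FPKM in cKO hearts. Cardiomyocyte markers summed to 17355 to 21424 and 10015.5 to 16021 FPKM. In either list 6 of 10 markers were called lower, beside 17.0% of all genes tested. The part of these markers in the values of the members was not tested.

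Of the catalytic subunits, Pik3cb rose while Pik3ca did not pass the test. Pik3cb (chromosome 9, 99036654 to 99140621, minus strand, 24 exons), which encodes p110β, was at 2.79, 2.55 and 2.54 FPKM across Ctrl hearts against 4.69, 4.53 and 3.65 FPKM across cKO hearts. All cKO hearts were above all Ctrl hearts. The cKO mean of 4.29 ± 0.558 FPKM was 163% of the Ctrl mean, and the log2 fold change was 0.54 (SE 0.0963, interval 0.31 to 0.77, limma adjusted p 0.00696). All 16 alternatives made this call, at 0.49 to 0.71.

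Pik3ca (chromosome 3, 32397671 to 32468486, plus strand, 20 exons), which encodes p110α, the main catalytic subunit downstream of the insulin receptor, was at 6.31, 6.33 and 7.26 FPKM across Ctrl hearts against 5.84, 5.27 and 5.96 FPKM across cKO hearts. The cKO values were all lower, by a small margin. The cKO mean was 85.8% of the Ctrl mean, with a log2 fold change of -0.19 (SE 0.0835, interval -0.39 to 0.01, limma adjusted p 0.124), and no alternative called it. The ratio of Pik3ca to Pik3cb was 2.26, 2.48 and 2.86 in Ctrl and 1.24, 1.16 and 1.63 in cKO hearts, a 1.89-fold lower geometric mean. With Pik3cd added, the class IA catalytic genes summed to 10.4 ± 0.788 FPKM in Ctrl and 11.0 ± 0.438 FPKM in cKO hearts, so the sums overlapped while the share of Pik3cb went from 25.4% to 39.0%.

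Regulatory transcripts outnumbered catalytic ones less in cKO than in Ctrl hearts. The summed FPKM of Pik3r1 and Pik3r2 over that of Pik3ca and Pik3cb was 4.04, 5.40 and 4.71 in Ctrl and 3.01, 1.48 and 2.78 in cKO hearts. The groups did not overlap, and the geometric mean was 2.03-fold lower in cKO.

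The AKT kinases, on which the chain converges, changed in opposite directions. Akt1 (chromosome 12, 112653821 to 112674884, minus strand, 14 exons), known for its role in growth and survival, was at 49.6, 54.4 and 51.2 FPKM across Ctrl hearts against 61.9, 59.6 and 61.5 FPKM across cKO hearts. The cKO values were tightly grouped above all Ctrl values. The cKO mean of 61.0 ± 1.23 FPKM was 118% of the Ctrl mean, with a log2 fold change of 0.24 (SE 0.0692, interval 0.07 to 0.40, limma adjusted p 0.0390). Leaving out any single heart ended this call (limma adjusted p 0.0501 to 0.124), as did leaving out Ctrl replicate 1 and cKO replicate 2 together (0.133). The log2 fold change stayed between 0.21 and 0.38 in all 16 alternatives, highest with scaling to read totals.

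Akt2 (chromosome 7, 27591552 to 27640826, plus strand, 14 exons), the isoform best known for insulin-stimulated glucose uptake, was at 30.7, 29.5 and 32.2 FPKM across Ctrl hearts against 25.0, 21.2 and 25.9 FPKM across cKO hearts. All cKO values were below all Ctrl values. The cKO mean of 24.0 ± 2.53 FPKM was 78.1% of the Ctrl mean, with a log2 fold change of -0.35 (SE 0.0932, interval -0.57 to -0.13, limma adjusted p 0.0282). The call was lost without Ctrl replicate 1 (limma adjusted p 0.0755), Ctrl replicate 2 (0.0604) or Ctrl replicate 3 (0.0925), without Ctrl replicate 1 and cKO replicate 2 together (0.0988), with no filter on low values (0.0533), with scaling without mtDNA-encoded transcripts (0.1003) and with scaling to read totals (0.156). In each of these Akt2 remained lower in cKO, by 0.20 on the log2 scale with scaling to read totals.

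Akt1 was the more abundant of the pair in every heart, by a wider margin in cKO. The ratio of Akt1 to Akt2 was 1.62, 1.84 and 1.59 in Ctrl and 2.48, 2.82 and 2.37 in cKO hearts, 1.52-fold higher in geometric mean.

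**Figure D2:**
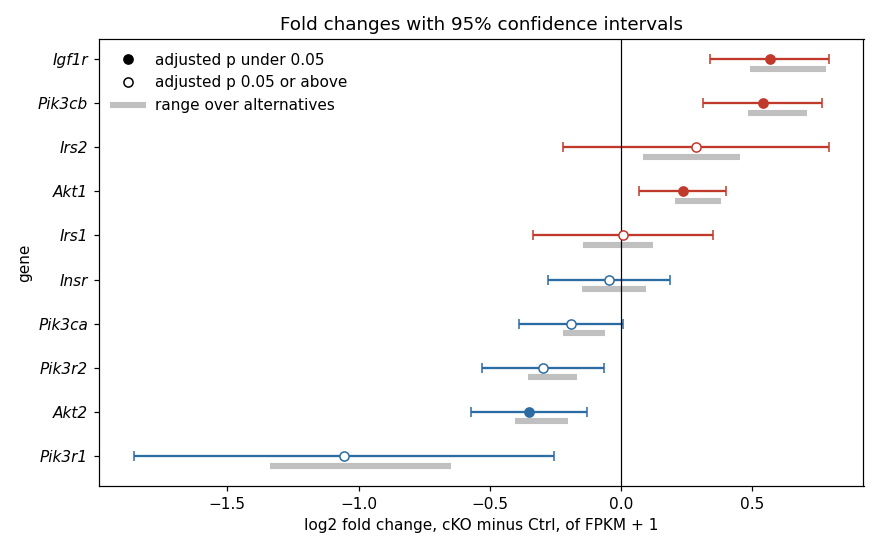
Log2 fold change of FPKM + 1 (cKO minus Ctrl) of each member with its 95% confidence interval, filled where the limma adjusted p was under 0.05, and a grey bar for the range over 16 alternatives. Igf1r (0.57) and Pik3cb (0.54) stood furthest to the right, Pik3r1 (-1.06) furthest to the left with the widest interval, and the grey bars of Insr and Irs1 crossed 0.

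In all, 6 ratios of related members were compared by two-sided exact permutation over hearts. The 5 ratios other than Irs1 to Irs2 did not overlap between groups, and each gave the smallest p that 3 against 3 hearts allow, 0.1 (0.12 after Benjamini-Hochberg adjustment over the 6, exact permutation). Irs1 to Irs2 was 0.587, 0.946 and 0.664 in Ctrl and 0.677, 0.640 and 0.415 in cKO hearts, which overlapped (exact permutation p 0.5). With 3 hearts per group this test cannot reach 0.05. Ratios of other gene pairs were not computed, and 51.2% of single genes tested did not overlap between groups. The count of ratios without overlap is therefore no result about the members. The ratio of sums also reuses the genes of the Pik3r1 to Pik3r2 and Pik3ca to Pik3cb ratios.

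**Figure D3:**
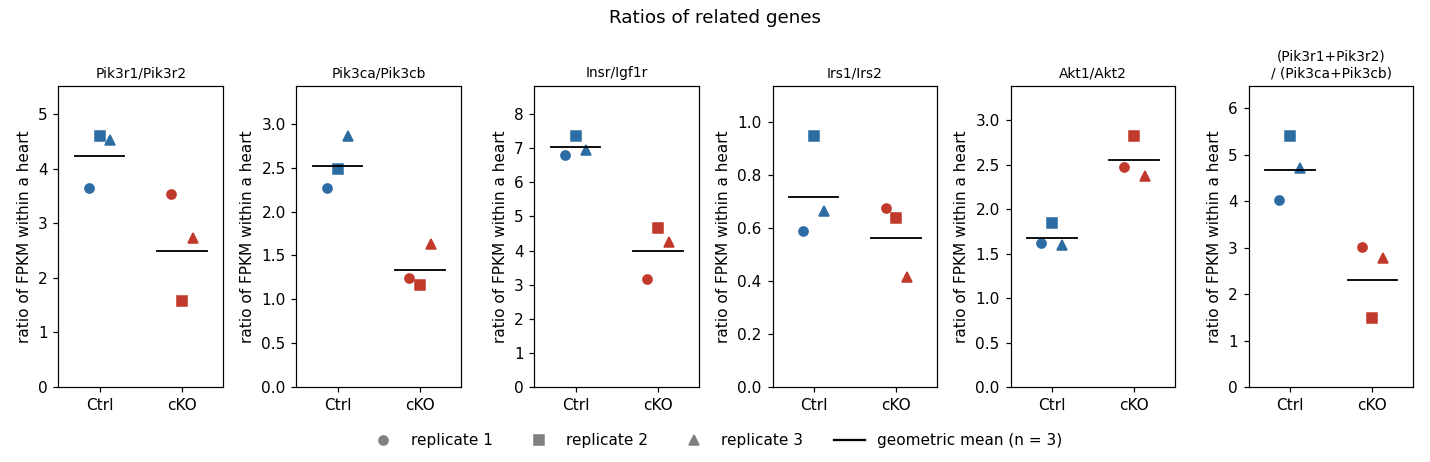
Ratio of FPKM within each heart for 6 pairs or sums of related members, Ctrl in blue and cKO in red, with the geometric mean (n = 3) as a line and every axis starting at 0. The ratios Pik3ca/Pik3cb, Insr/Igf1r and Akt1/Akt2 separated the groups by a clear gap, Pik3r1/Pik3r2 only narrowly (3.54 against 3.65), and Irs1/Irs2 overlapped.

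A gene list of 82 further genes of the pathway, sorted by role, placed the members in their setting. Of these, 69 were abundant enough to test, and 11 rose, 18 fell and 40 did not pass, with a median log2 fold change of -0.08 against -0.02 for all genes. The called shares were 15.9% higher and 26.1% lower, beside 16.3% and 17.0% over all genes tested, and neither the list nor any role in it was tested as a group. Each count by role below is to be read beside the same 16.3% and 17.0%. Without Ctrl replicate 1 the counts were 4 higher and 14 lower, without Ctrl replicate 2 they were 4 and 11, and without Ctrl replicate 1 and cKO replicate 2 they were 6 and 11. That last setting ended the calls on Igfbp7, Igfals, Gab1, Mapkap1, Pdpk1, Trib3 and Foxo6 among the genes named below (limma adjusted p 0.0732 to 0.175).

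The 1 further receptor gene tested did not pass. Of the ligands only Igf1 was abundant enough to test, at 1.37 and 1.34 FPKM on average in Ctrl and cKO (limma adjusted p 0.917). Igf2 averaged 0.250 and 0.189 FPKM, below the filter, and Ins1 and Ins2 were listed at 0 in every heart. Among 6 binding proteins tested, 1 rose and 2 fell. Igfbp7, a secreted binding protein, averaged 137 ± 6.59 FPKM in Ctrl and 181 ± 26.2 FPKM in cKO hearts (log2 fold change 0.39, limma adjusted p 0.0398), a call lost in 8 of 16 alternatives. Igfals, whose product holds IGFs in the circulation, averaged 2.54 and 1.39 FPKM (-0.58, limma adjusted p 0.0261), a call lost in 6 of them.

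Between the receptors and PI3-kinase, 1 of 6 inhibitors tested rose and 1 fell, a pair of relatives that bind the activated receptors. Grb10 was at 7.59, 9.22 and 7.96 FPKM across Ctrl hearts against 16.7, 14.8 and 16.0 FPKM across cKO hearts, and rose by 0.86 on the log2 scale (limma adjusted p 0.00152). Grb14 was at 19.0, 21.7 and 19.7 FPKM across Ctrl hearts against 10.5, 13.1 and 11.7 FPKM across cKO hearts, with a log2 fold change of -0.73 (limma adjusted p 0.00288). Grb14 was the higher of the pair in every Ctrl heart and Grb10 in every cKO heart, and both calls held in all 16 alternatives. Of 7 other adaptors tested, 2 rose and 1 fell, among them Crk (24.8 to 34.0 FPKM, log2 fold change 0.44, limma adjusted p 0.0137) and the docking protein gene Gab1 (12.4 to 8.89 FPKM, -0.43, limma adjusted p 0.0443, called in 6 of 16 alternatives).

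Of 3 further regulatory genes tested 1 fell, and the 4 further catalytic genes tested did not pass (limma adjusted p of 0.260 or more). Pik3r6, which encodes a regulator of the class IB enzyme, averaged 1.82 FPKM in Ctrl and 1.01 FPKM in cKO hearts (log2 fold change -0.49, limma adjusted p 0.00442). Pik3cd averaged 1.12 and 0.997 FPKM (limma adjusted p 0.728), and Pik3cg lay below the filter at 0.244 and 0.276 FPKM. Pik3ip1, which encodes a membrane protein that inhibits the catalytic subunit, was at 12.4, 14.5 and 19.3 FPKM across Ctrl hearts against 8.64, 4.21 and 8.12 FPKM across cKO hearts. It was 1 of 2 that fell among 8 PI3-kinase inhibitors and lipid phosphatases, with a log2 fold change of -1.07 (limma adjusted p 0.0206), a call lost without Ctrl replicate 2, without Ctrl replicate 3 and with no filter. In the same group, the lipid phosphatase gene Inpp4b alone rose, from 4.28 to 6.75 FPKM (0.54, limma adjusted p 0.00937).

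Among genes whose products activate AKT, Pdpk1 and Mapkap1 rose. Pdpk1, the kinase that phosphorylates AKT in its activation loop, averaged 4.95 and 6.29 FPKM (log2 fold change 0.29, limma adjusted p 0.0244, called in 11 of 16 alternatives). Mapkap1, a subunit of the mTOR complex that phosphorylates AKT at its other site, averaged 10.9 and 14.6 FPKM (0.39, limma adjusted p 0.0204, called in 12 of 16). Of 10 AKT inhibitors 2 rose and 4 fell, or 20.0% and 40.0% beside 16.3% and 17.0% of all genes. Trib3, a pseudokinase that binds AKT, was at 1.60, 1.15 and 1.63 FPKM across Ctrl hearts against 4.75, 36.2 and 28.8 FPKM across cKO hearts, with cKO replicate 1 far below the others of its group. Its log2 fold change of 2.92 was the largest of the list (limma adjusted p 0.0153), and the call was lost without Ctrl replicate 2 and without Ctrl replicate 1 and cKO replicate 2. Phlpp1, a phosphatase of AKT, fell from 4.15 to 2.88 FPKM (-0.41, limma adjusted p 0.00838).

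Of 16 AKT substrates 2 rose and 6 fell, or 12.5% and 37.5% beside 16.3% and 17.0% of all genes, with a median log2 fold change of -0.26. The FOXO transcription factors, which AKT holds out of the nucleus, were among those that fell. Foxo1 was at 2.61, 2.99 and 3.06 FPKM across Ctrl hearts against 1.61, 1.66 and 1.78 FPKM across cKO hearts (-0.53, limma adjusted p 0.00379). Foxo3 averaged 23.7 ± 3.68 and 12.6 ± 3.35 FPKM (-0.88, limma adjusted p 0.0170), a call lost without Ctrl replicate 2 or Ctrl replicate 3. Foxo4 averaged 24.6 and 14.0 FPKM (-0.79, limma adjusted p 0.00930). Foxo6, chosen after its values were seen, averaged 0.994 and 0.351 FPKM (-0.56, limma adjusted p 0.0146). Tbc1d4, a regulator of glucose transporter traffic and chosen in the same way, fell from 15.5 to 8.89 FPKM (-0.75, limma adjusted p 0.00614).

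**Figure D4:**
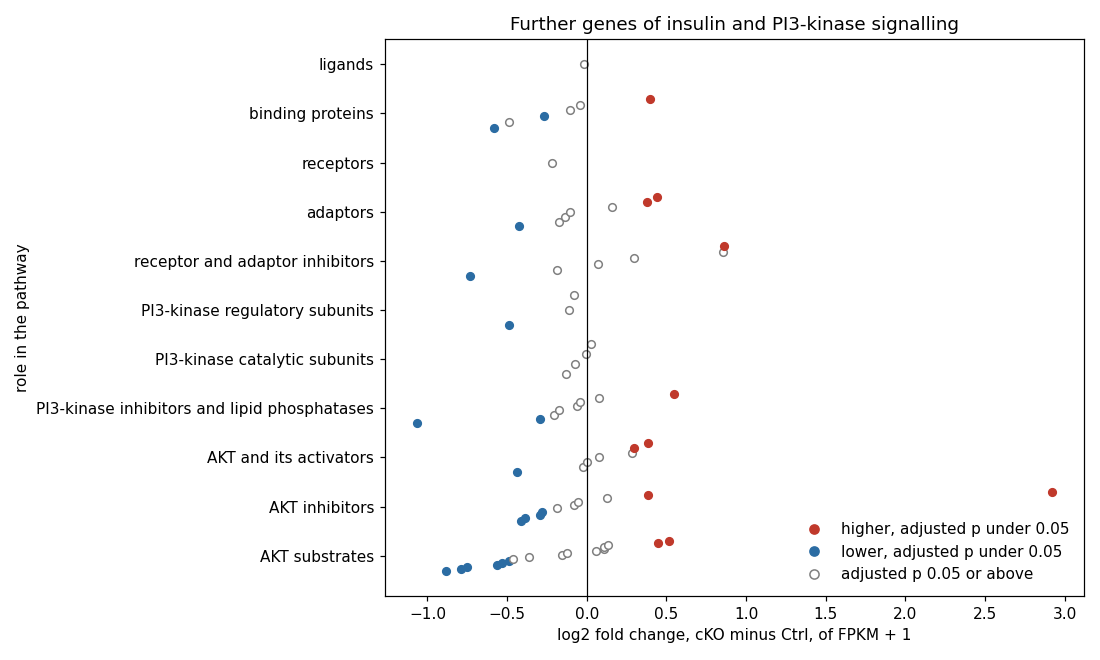
Log2 fold change of FPKM + 1 (cKO minus Ctrl) of the 69 further pathway genes tested, in rows by role, red where higher and blue where lower at a limma adjusted p under 0.05, open otherwise. Trib3 stands alone at 2.92 among the AKT inhibitors, Grb10 and Grb14 lie on opposite sides of 0, and 6 AKT substrates are lower and 2 higher.

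The pattern of Pik3r1 over the 6 hearts was also set beside that of all 5861 non-member genes that averaged 5 FPKM or more. Likeness was measured as the root mean square difference of log2(FPKM + 1) after centring each gene on its own mean. The nearest were Rgcc, a regulator of the cell cycle, at 0.167, Fbxo32, a muscle ubiquitin ligase, at 0.187, and Pik3ip1 at 0.191. They were picked for this likeness over the same hearts, so that they share a low value in cKO replicate 2 with Pik3r1 follows from the choice.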

How the data were processed

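The authors isolated RNA from heart tissue, made poly-A selected libraries, sequenced paired ends, aligned the reads with HISAT2 2.0.5 and counted them per gene with featureCounts 1.5.0-p3. From these counts and gene lengths the authors computed the deposited FPKM values, 1 column per heart, and the gene length was deposited beside them. The authors' own test used DESeq2. Whether counting used strand was not given in the sources used here. Per the labels the build was mm9, but the table's gene positions match GRCm38. Its chromosomes equalled those of GENCODE M21 for all 54409 shared identifiers, and both ends were identical for 53499. Other annotated genes overlap some members, among them Insr, Pik3r1 and Irs1, and their part in the members' values was not tested.

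FPKM multiplied by gene length and by 1 implied library size per heart gave whole reads (within 0.1 read) for 100% of values, and their sums are the library totals. The implied sizes were 0.913 to 0.980 times the totals in Ctrl and 1.06 times in cKO. Genes that averaged 0.5 FPKM or more over 6 hearts were tested on log2(FPKM + 1), which understates changes of low genes, with limma 3.58.1 in R 4.3.3 (eBayes with trend, 2 groups, no covariates, two-sided) and Benjamini-Hochberg adjustment over all 12944 genes. The fit was tested on simulated data. Ratios were compared by exact permutation. Errors marked ± are SD (n = 3). The limma p-values set the difference between groups against the variation among these hearts, with the variance of each gene moderated over all genes tested. Controls were littermates by the methods, but no label ties a heart to a litter. The precision is set by 3 hearts per group, beyond counting error.

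The members, the pathway and marker lists and the tests were chosen with earlier results of these data known. Named from the pathway list were, in each role, up to 2 genes with the largest absolute log2 fold change past the threshold, plus Pik3r3, Pik3cd, Pik3cg, Pik3ip1, Igf1, Igf2, Pdpk1, Foxo1 and Foxo3, and for Pik3r1 the 3 genes of nearest pattern. Some genes so chosen are not reported here but are included in counts. Alternatives were a pseudocount of 0.1, no filter, a 1 FPKM minimum mean, rescaling by median of ratios or without mtDNA-encoded genes, eBayes without trend, voom on recovered reads, a replicate block, and leaving out each heart. Leaving out Ctrl replicate 1 and cKO replicate 2 together and scaling to recovered read totals were chosen after seeing the data. The marker lists not described with the members gave summed levels of 619 to 636 FPKM in Ctrl and 422 to 540 in cKO for fibroblasts, 168 to 186 and 108 to 139 for smooth muscle and pericytes, 161 to 233 and 138 to 198 for macrophages, 1.38 to 7.39 and 0.818 to 3.95 for adipocytes, and 880.4 to 2056 and 585 to 1588 for red blood cells.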

Additional observations from a re-analysis of the deposited data

How the results depend on the processing

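Of 731 alternative values, 617 stayed the same, 68 lost a call, 8 gained one, 23 moved and 15 reversed. For the fold change of a gene, the same means that direction and side of the threshold were kept. A count stayed the same if it lay within a set fold of the main count. A log2 ratio did so if it shifted by less than the pooled SD of the groups. Other counts and ratios are those that moved. The 15 reversals concerned Insr, Irs1, Pik3cd, Pik3r3 and Igf1, none of which passed the test in any alternative. Insr turned to 0.0386 under mtDNA-free scaling, that is, scaling without mtDNA-encoded genes, and its log2 fold change ranged from -0.149 to 0.0189 with hearts left out. Irs1 ranged from -0.144 to 0.121, Pik3cd from -0.229 to 0.00917 and Igf1 from -0.0878 to 0.0530 with hearts left out. Irs1 was -0.0820 without Ctrl replicate 1 and cKO replicate 2, and Igf1 was 0.0332 under mtDNA-free scaling and 0.0100 in voom. With hearts left out, genes called higher numbered 1396 to 1977 and genes called lower 1423 to 2011, members called lower 0 to 2, and further pathway genes 4 to 9 higher and 11 to 15 lower. Members called lower numbered 0 with no filter, 2 with a minimum mean of 1 FPKM, 0 under mtDNA-free scaling and 3 in voom. Without Ctrl replicate 1 and cKO replicate 2 together, 1396 genes were called higher and 1434 lower, and 6 and 11 pathway genes. With scaling to total recovered reads 3273 genes were called higher and 1381 lower, 0 members were called lower, and Insr was at 0.0970, Pik3r3 at 0.0231 and Igf1 at 0.0697. The log2 ratio of Insr to Igf1r was -0.61 with a pseudocount of 1 FPKM. Fewer hearts leave fewer degrees of freedom; the cause of the other shifts was not tested.

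Same-numbered hearts did not deviate together (correlations -0.06, 0.17 and -0.01), so the replicate numbers were not taken as pairs. With the replicate block 1874 genes were called higher and 1982 lower, and 10 and 17 pathway genes. The replicate block ended the call on Akt1 (limma adjusted p 0.0880), made one on Irs2 (0.0483) and changed no other member's call.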
